A study of Mus musculus with 24 samples.

Results

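Npas4, Arnt2, Nr4a1, Nr4a2 and Nr4a3 are 5 of the 55414 genes in a count table of mRNA from the mouse visual cortex. They were chosen by name, as a neuronal transcription factor that responds to activity (Npas4), a partner it binds (Arnt2) and the 3 members of the Nr4a nuclear receptor family. All 5 were found in the table under 1 Ensembl gene each and all 5 passed the filter on low counts. The tissue came from 24 adult male C57BL/6J mice, with 1 library per mouse and 6 mice per group. The mice lived under a reversed light cycle and were studied while their room was dark. Dark mice received vehicle (PBS) and stayed in the dark. Light mice received PBS and were placed in light for 2.5 h. Psilocybin-dark mice received psilocybin at 5 mg/kg, injected into the peritoneum, without any light, and psilocybin-light mice received the same dose before they were moved to the light. Psilocybin is the prodrug of psilocin, an agonist of serotonin receptors. Every group shares the handling and the injection, and a bulk sample of cortex cannot tell fewer cells of a type from less RNA per cell.

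The light exposure of each library has a pair of sources that contradict each other. The groups used throughout follow the headings of a supplementary count table of the study, so that mice 1 to 6 are dark, mice 7 to 12 psilocybin-dark, mice 13 to 18 light and mice 19 to 24 psilocybin-light. In the sample labels the drug is the same but light and dark are swapped, for all 24 libraries. Under the labels, the group called dark here would be the light mice given PBS. Light against dark and psilocybin-light against psilocybin-dark would then keep their names and change sign, and the interaction would change sign too. The other comparisons below would carry another pair of names.

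Npas4 is a transcription factor of the bHLH-PAS family that neurons make within minutes of calcium entry. It has to pair with a second bHLH-PAS protein, Arnt or Arnt2, to bind DNA, and it is known for setting the number of inhibitory synapses that excitatory neurons receive. Arnt2 is that partner in most neurons and is present before any stimulus. Nr4a1 (also called Nur77), Nr4a2 (Nurr1) and Nr4a3 (Nor1) are orphan nuclear receptors without a known hormone that must bind them, and their genes are early targets of the cAMP response element binding protein CREB. Nr4a1 and Nr4a2 can also pair with retinoid X receptors. In the cortex, Nr4a2 has a second face, because it is made without stimulation by neurons of layer 6b and of the claustrum.

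In the mouse genome GRCm39 with GENCODE vM39, Npas4 (ENSMUSG00000045903) lies on chromosome 19 from 5034382 to 5040344 on the minus strand, and no other gene overlaps it. Arnt2 (ENSMUSG00000015709) lies on chromosome 7 from 83895483 to 84059740 on the minus strand. The lncRNA genes Gm26708 and Gm30873 on the other strand overlap it, and they hold 38 and 51 counts in all 24 libraries together. Nr4a1 (ENSMUSG00000023034) lies on chromosome 15 from 101151980 to 101172681 on the plus strand and is overlapped by 3 lncRNA genes that have no row in the table. Nr4a2 (ENSMUSG00000026826) lies on chromosome 2 from 56996842 to 57014331 on the minus strand, with no overlapping gene. Nr4a3 (ENSMUSG00000028341) lies on chromosome 4 from 48045153 to 48086447 on the plus strand, with 1 antisense lncRNA gene that has no row. The strand setting of the counting is not given in the sources used here, so reads from a gene and from its antisense partner are not separable here.

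The promoters of Npas4 and the Nr4a genes are shown because CREB binds a known short motif, the cAMP response element, whose half-site reads TGACG. On the opposite strand its letters are CGTCA. The 250 bases before the start of each gene, written in the direction of the gene, come from RefSeq on GRCm38.p6, where Npas4 is chr19:4989972-4990221 (minus strand), Nr4a1 is chr15:101266596-101266845 (plus), Nr4a2 is chr2:57124004-57124253 (minus) and Nr4a3 is chr4:48045055-48045304 (plus). Capitals mark each half-site on either strand.
Npas4: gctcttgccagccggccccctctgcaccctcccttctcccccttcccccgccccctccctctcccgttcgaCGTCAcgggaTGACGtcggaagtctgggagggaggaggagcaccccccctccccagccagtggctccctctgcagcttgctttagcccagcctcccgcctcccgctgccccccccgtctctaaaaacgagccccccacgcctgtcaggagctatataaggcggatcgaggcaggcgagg
Nr4a1: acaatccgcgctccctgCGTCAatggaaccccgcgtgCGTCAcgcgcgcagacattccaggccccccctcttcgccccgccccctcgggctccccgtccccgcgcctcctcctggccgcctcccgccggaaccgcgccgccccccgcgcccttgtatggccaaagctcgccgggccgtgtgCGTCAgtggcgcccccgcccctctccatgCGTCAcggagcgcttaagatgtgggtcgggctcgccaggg
Nr4a2: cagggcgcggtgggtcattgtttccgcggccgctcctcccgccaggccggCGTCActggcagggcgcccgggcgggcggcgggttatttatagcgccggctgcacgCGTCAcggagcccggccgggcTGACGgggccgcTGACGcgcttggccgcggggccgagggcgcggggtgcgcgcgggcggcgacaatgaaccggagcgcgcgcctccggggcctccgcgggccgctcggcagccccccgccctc
Nr4a3: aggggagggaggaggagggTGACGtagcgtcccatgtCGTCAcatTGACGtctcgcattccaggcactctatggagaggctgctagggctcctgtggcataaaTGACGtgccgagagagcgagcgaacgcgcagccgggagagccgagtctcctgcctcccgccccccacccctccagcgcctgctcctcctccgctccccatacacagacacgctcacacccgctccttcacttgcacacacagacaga

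Distances are counted from the RefSeq start at the end of each window, which need not be the GENCODE position given above. The Npas4 window holds 2 half-sites, which begin 179 and 169 bases before the start. Nr4a1 holds 4, beginning 233, 213, 69 and 40 bases before the start. Nr4a2 also holds 4, at 200, 144, 123 and 111 bases, and Nr4a3 holds 4, at 231, 213, 205 and 147 bases. Of 32851 RefSeq windows of the same length, 17.8% hold at least 1 half-site, 1282 windows hold at least 2 and 0.137% hold at least 4. The window of Arnt2 holds none. The full palindrome TGACGTCA is in none of the 5 windows, against 1.55% of all windows. The same holds for the monomer site of the Nr4a receptors, AAAGGTCA (1.34% of all windows), and for TCGTG, a core that bHLH-PAS pairs bind (13.3%), each searched on both strands. These are matches of letters, and no factor was measured at any of them.

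The libraries were not alike in tissue content, and the dark group stood apart. Total counts lay between 13552516 and 17906994 per library over all groups, and the 4 groups overlapped in depth. Fibcd1, a marker of hippocampal CA neurons, held between 322 and 4785 normalized counts in the dark mice and at most 305 in any of the other 18. Summed over the 10 hippocampal markers, of which none was at 0 in any group, the dark mice lay between 4194 and 7559, the psilocybin-dark mice between 1690 and 4514, the light mice between 1808 and 4423 and the psilocybin-light mice between 1899 and 3006. Of the 8 cortical glutamatergic markers, 4 were called higher than in dark mice in each of the other groups. Of all genes, 15.4%, 11.9% and 17.4% were called higher in light, psilocybin-dark and psilocybin-light mice. The sum of the 8 markers reached down to 29562 in the dark group against 67335 or more in the others. Separately, 4 libraries held between 19229 and 64184 counts of the 6 cerebellar markers, against at most 2647 in the other 20. They were dark mice 1 and 6, psilocybin-dark mouse 12 and light mouse 18. None of the 5 oligodendrocyte markers was called against dark mice with all libraries, but without these 4 all 5 were called higher in each other group. Their median log2 fold changes were 1.10 in light, 1.05 in psilocybin-dark and 1.15 in psilocybin-light mice. Of all genes in that set, 21.1%, 18.3% and 24.0% were called higher in these groups. Changes without these 4 libraries are given beside many, but not all, of the results for the 5 genes and the lists that follow. The part of the hippocampal markers in the comparisons with dark mice cannot be told apart from the group.

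Npas4 had the lowest mean normalized count of the 5 genes in every group. Normalized counts are counts scaled to a common library size of 16058300, and are not divided by the length of a gene. In the dark mice (1 to 6) Npas4 held 36.7, 145, 101, 144, 113 and 48.4 normalized counts. The psilocybin-dark mice (7 to 12) held 293, 249, 353, 322, 342 and 351. The light mice (13 to 18) held 567, 697, 436, 568, 351 and 411, and the psilocybin-light mice (19 to 24) held 551, 1037, 808, 504, 347 and 450. Every mouse of the 3 treated groups lay above every dark mouse. The psilocybin-dark mice lay closest together, with an SD of 40.8 around a mean of 318, while the psilocybin-light mice had an SD of 257 around a mean of 616. The lowest dark values were those of mice 1 and 6, both among the libraries with cerebellar markers, but mice 12 and 18, which share that feature, lay within their groups.

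Nr4a1 followed the same order of group means at a higher level. The dark mice held 281, 834, 1018, 793, 773 and 451 normalized counts. The psilocybin-dark mice held 1562, 2383, 2001, 2544, 2265 and 867. The light mice held 1309, 2137, 2863, 4193, 2010 and 2666, and the psilocybin-light mice held 1664, 3278, 5866, 4140, 2762 and 3411. No light or psilocybin-light mouse overlapped the dark group. In the psilocybin-dark group 5 of 6 mice lay above all dark mice, and the exception was mouse 12, a library with cerebellar markers.

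Nr4a2 ran the other way. The dark mice held 551, 1415, 3577, 1582, 2073 and 2085 normalized counts, the widest spread of any group for this gene. The psilocybin-dark mice held 1830, 901, 1583, 692, 582 and 1558. The light mice held 1403, 1083, 1067, 735, 1146 and 1528, and the psilocybin-light mice held 745, 509, 864, 731, 612 and 874. All groups overlapped the dark group, the psilocybin-light mice through dark mouse 1 alone, whose 551 was lower than all but 1 of them. The 6 psilocybin-light mice all lay below the other 5 dark mice.

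Nr4a3 moved least among the 3 receptors. The dark mice held 711, 1083, 1304, 1546, 954 and 471 normalized counts. The psilocybin-dark mice held 885, 1071, 958, 950, 907 and 586. The light mice held 667, 712, 752, 788, 669 and 1006, and the psilocybin-light mice held 443, 437, 951, 749, 625 and 891. The groups overlapped in every comparison, and the lowest dark values were again those of mice 1 and 6.

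Arnt2 had the highest mean normalized count of the 5 genes in every group. The dark mice held 4406, 6447, 6499, 6021, 6205 and 3372 normalized counts, and the other 18 mice lay between 5233 and 7522. Dark mice 1 and 6 were the lowest of all 24. Psilocybin-dark mouse 12 and light mouse 18 were the lowest of their groups, so all 4 libraries with cerebellar markers were low in Arnt2.

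**Figure D1:**
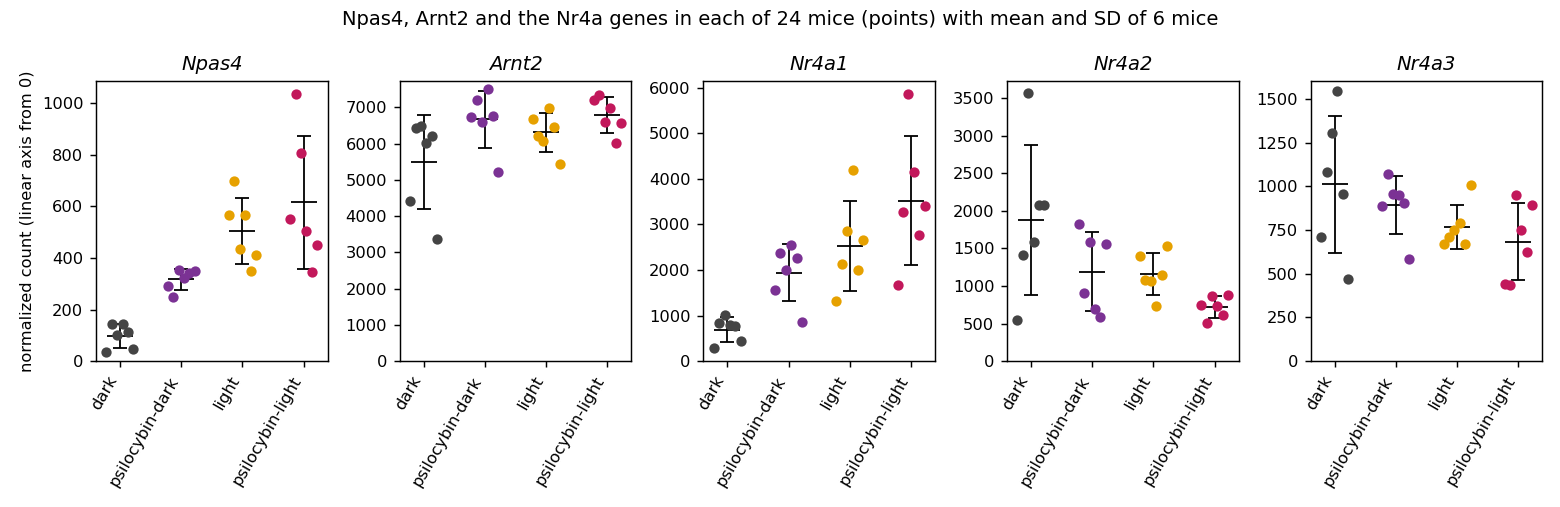
Normalized counts (linear axis from 0) of Npas4, Arnt2, Nr4a1, Nr4a2 and Nr4a3 in each of 24 mice. Points are single mice of the dark, psilocybin-dark, light and psilocybin-light groups, and bars give the mean and SD of 6 mice. All treated mice lie above the dark mice for Npas4, while the groups overlap for Arnt2, Nr4a2 and Nr4a3.

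To compare the genes with each other, counts were divided by the length of the canonical transcript and scaled to a common sum, as TPM. In dark mice the mean TPM was 5.28 ± 2.43 (SD, n = 6) for Npas4, 34.5 ± 12.6 for Nr4a3, 53.0 ± 20.1 for Nr4a1, 77.2 ± 40.5 for Nr4a2 and 164 ± 36.1 for Arnt2. The 3 Nr4a genes overlapped within their SD in this group, and Npas4 and Arnt2 stood below and above them. In psilocybin-light mice the order was Nr4a3 (22.3 ± 7.16), Nr4a2 (28.2 ± 5.34), Npas4 (31.7 ± 13.4), Arnt2 (193 ± 14.3) and Nr4a1 (259 ± 106). The SD ranges of Nr4a3, Nr4a2 and Npas4 between mice overlapped there, as did those of Arnt2 and Nr4a1. Within single mice, Nr4a2 exceeded Nr4a3 in every psilocybin-light mouse. Between these groups lay the psilocybin-dark mice, with 17.2 ± 2.38 for Npas4, 148 ± 46.8 for Nr4a1 and 49.1 ± 22.1 for Nr4a2, and the light mice, with 26.4 ± 6.85, 187 ± 72.0 and 46.1 ± 11.3.

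The first comparison asked what light alone did. In light mice, Npas4 was 5.15-fold higher than in dark mice (log2 fold change 2.37, SE 0.29, edgeR quasi-likelihood test, Benjamini-Hochberg adjusted p = 5.68e-06), and Nr4a1 was 3.66-fold higher (1.87, SE 0.33, adjusted p = 0.000177). An exact permutation test of 6 mice against 6 gave p = 0.00216 for both, the smallest that this design allows, and an adjusted p of 0.013 over 30 tests. Of all 14464 genes tested, 15.4% were called higher and 16.5% lower in this comparison, and 10.0% had groups that did not overlap, as Npas4 and Nr4a1 did. Nr4a2 had a log2 fold change of −0.70 (SE 0.32, adjusted p = 0.100), Nr4a3 of −0.40 (SE 0.23, adjusted p = 0.194) and Arnt2 of 0.20 (SE 0.12, adjusted p = 0.217), and none of these passed the threshold of 0.05. Without the 4 libraries with cerebellar markers, Npas4 and Nr4a1 were still called, at 2.05 and 1.55, and Nr4a2 (−0.99, adjusted p = 0.0107) and Nr4a3 (−0.77, adjusted p = 0.00177) were then called lower in light mice. Leaving out dark mouse 1 alone called Nr4a2 lower (−0.89), and leaving out dark mouse 6 alone called Nr4a3 lower (−0.54). The oligodendrocyte markers moved with these gained calls, and their part in them was not tested. In that smaller set the background was 21.1% called higher and 22.0% called lower.

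The second comparison asked what psilocybin did in the dark. Psilocybin-dark mice had 3.25-fold more Npas4 than dark mice (1.70, SE 0.29, adjusted p = 0.000237) and 2.80-fold more Nr4a1 (1.49, SE 0.33, adjusted p = 0.00198). The background was 11.9% of genes called higher, 12.8% called lower and 5.58% with no overlap between the groups. Npas4 was among the genes without overlap. Nr4a2 (−0.66, SE 0.32, adjusted p = 0.139), Nr4a3 (−0.18, SE 0.23, adjusted p = 0.613) and Arnt2 (0.28, SE 0.12, adjusted p = 0.0941) did not pass. Without the 4 libraries, Npas4 (1.30) and Nr4a1 (1.33) were still called, Nr4a2 was called lower (−0.95, adjusted p = 0.0152) and Arnt2 was called higher by a small amount (0.14, adjusted p = 0.0441).

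In psilocybin-light mice against the same dark mice, Npas4 was 6.28-fold higher (2.65, SE 0.29, adjusted p = 8.47e-07) and Nr4a1 5.09-fold higher (2.35, SE 0.33, adjusted p = 1.28e-05). Nr4a2 was 2.60-fold lower (−1.38, SE 0.32, adjusted p = 0.00188), and the exact permutation test gave p = 0.013 (adjusted p = 0.039). Of all genes, 17.4% were called higher, 21.0% lower and 15.8% had no overlap. Nr4a3 (−0.56, SE 0.23, adjusted p = 0.0571) and Arnt2 (0.31, SE 0.12, adjusted p = 0.0509) lay just outside the threshold. Without the 4 libraries Nr4a3 was called lower (−0.83, adjusted p = 0.000493), while Arnt2 moved to 0.12 (adjusted p = 0.0732).

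**Figure D2:**
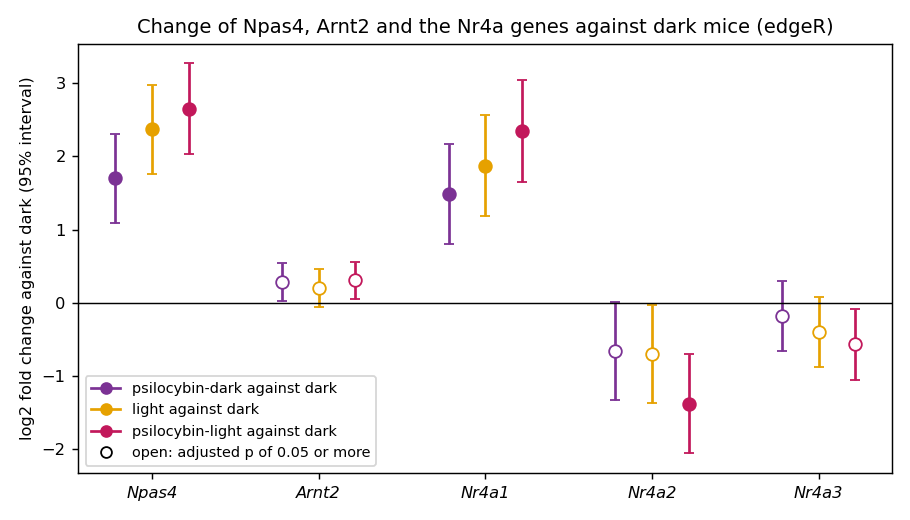
Log2 fold change of each gene in psilocybin-dark, light and psilocybin-light mice against dark mice, with 95% intervals from edgeR. Filled points have an adjusted p under 0.05. Npas4 and Nr4a1 are filled in all 3 comparisons and Nr4a2 only in psilocybin-light mice, while Arnt2 and Nr4a3 are open throughout.

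These 3 comparisons share the dark mice, so they are not independent of each other, and the hippocampal markers moved with all of them. Of the 8 hippocampal markers tested, 4 were lower in light, 3 in psilocybin-dark and 6 in psilocybin-light mice, beside 16.5%, 12.8% and 21.0% of all genes, and none was higher. In the set without the 4 libraries with cerebellar markers the counts were 4, 4 and 6 of 7 tested. There 22.0%, 20% and 24.2% of all genes were called lower. With the mean log2 level of these markers in the model as a covariate, Npas4 was still called in light (2.27, adjusted p = 0.0155) and in psilocybin-light mice (2.54, adjusted p = 0.0111), but not in psilocybin-dark mice (1.60, adjusted p = 0.308). Nr4a1 was then not called in any of them, at 1.42 (adjusted p = 0.169), 1.01 (adjusted p = 0.636) and 1.86 (adjusted p = 0.085) for light, psilocybin-dark and psilocybin-light mice. Nr4a2 in psilocybin-light mice was not called either (−1.08, adjusted p = 0.257). Over all genes, this fit called 719 genes in light, 0 in psilocybin-dark and 869 in psilocybin-light mice, against 4611, 3575 and 5551 without the covariate. The marker mean lay between 2.17 and 3.78 in dark mice and between 1.45 and 2.44 in the other mice.

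The comparisons among the 3 treated groups contrast no dark mice. The dark mice still entered the shared fit, and so the spread behind each SE and adjusted p of edgeR. Psilocybin-light mice were compared with light mice to ask what the drug added under light. None of the 5 genes was called by edgeR, and 0.608% of all genes were. The log2 fold change was 0.29 for Npas4 (95% interval −0.27 to 0.84, adjusted p = 0.848), 0.48 for Nr4a1 (−0.18 to 1.14, adjusted p = 0.711), −0.16 for Nr4a3 (−0.65 to 0.32, adjusted p = 0.924) and 0.10 for Arnt2 (−0.15 to 0.36, adjusted p = 0.899). For Nr4a2 it was −0.68 (−1.35 to −0.01, adjusted p = 0.498), with an unadjusted p of 0.0453. The exact permutation test on Nr4a2 gave p = 0.00866 (adjusted p = 0.0289 over 30 tests). Before adjustment, both tests lay under 0.05 for this gene. Their adjusted values cannot be compared directly, because edgeR's was adjusted over all genes tested and the other over 30 tests. All 6 psilocybin-light mice lay below the median of the light mice and 3 of them below every light mouse.

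Psilocybin-light mice were also compared with psilocybin-dark mice, which asks what light added under the drug. Npas4 was 1.93-fold higher (0.95, SE 0.27, adjusted p = 0.0374; exact permutation p = 0.00649, adjusted p = 0.0244), in a comparison in which 6.38% of all genes were called. In 5 of 6 psilocybin-light mice Npas4 lay above every psilocybin-dark mouse. Nr4a1 had a log2 fold change of 0.86 (95% interval 0.20 to 1.52, adjusted p = 0.113), Nr4a2 of −0.72 (−1.39 to −0.05, adjusted p = 0.209), Nr4a3 of −0.38 (−0.87 to 0.10, adjusted p = 0.379) and Arnt2 of 0.02 (−0.23 to 0.28, adjusted p = 0.946). Leaving out 1 mouse at a time, the call for Npas4 was kept in 16 of 24 fits and lost without any one of psilocybin-dark mice 7 to 11 or psilocybin-light mice 19 to 21, with values from 0.75 to 1.07, and without the 4 libraries with cerebellar markers it was 0.99 (adjusted p = 0.00512).

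Psilocybin-dark and light mice met each stimulus alone. Npas4 was lower in psilocybin-dark than in light mice by edgeR's estimate (−0.67, SE 0.27), which did not pass (adjusted p = 0.238). The exact permutation test gave p = 0.00649 (adjusted p = 0.0244), and 4 of 6 psilocybin-dark mice lay below every light mouse. Of all genes, 0.456% were called, or 66 genes, a count that ran from 3 (without light mouse 15) to 346 (without dark mouse 6) when 1 mouse was left out. It was 852 without the 4 libraries with cerebellar markers. With the compared groups alone in the fit it was 254, and edgeR then called Npas4 (−0.67, adjusted p = 0.0459). The 95% intervals for the other genes were −1.04 to 0.27 for Nr4a1, −0.63 to 0.70 for Nr4a2, −0.26 to 0.70 for Nr4a3 and −0.17 to 0.34 for Arnt2, on the log2 scale.

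The interaction asked whether the combined treatment changed a gene by more or less than the sum of the separate changes on the log2 scale. For Npas4 it was −1.42 (SE 0.39, adjusted p = 0.0282), so the combined change of 2.65 was smaller than the sum of 2.37 and 1.70. Across all genes 8.75% had a called interaction. Nr4a1 had an interaction of −1.01 (SE 0.45, adjusted p = 0.161), and those of Arnt2 (−0.18, adjusted p = 0.575), Nr4a2 (−0.02, adjusted p = 0.983) and Nr4a3 (0.02, adjusted p = 0.985) were near 0. The Npas4 interaction was −1.06 (adjusted p = 0.0304) without the 4 libraries. It lost its call without light mouse 14 or psilocybin-light mouse 24 and with the hippocampal covariate (−1.33, adjusted p = 0.389).

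The shares of the 3 genes in the Nr4a family differed between the groups. In dark mice Nr4a1 made up between 25.4% and 40.2% of the summed Nr4a TPM, with a median of 32.5%, and Nr4a2 made up between 33.0% and 62.8% (median 42.3%), the largest share in 4 of 6 mice. In psilocybin-dark mice the Nr4a1 share lay between 44.2% and 76.2% (median 66.2%), and in light mice between 55.6% and 84.9% (median 69.6%). In psilocybin-light mice it lay between 73.6% and 87.5% (median 83.6%). No mouse of any treated group had an Nr4a1 share as low as the highest dark mouse. The median ratio of Nr4a1 to Nr4a2 TPM went from 0.817 in dark mice to 3.65 in psilocybin-dark, 3.49 in light and 9.51 in psilocybin-light mice. The median Nr4a3 share was 20.8% in dark and 7.56% in psilocybin-light mice. The summed TPM itself overlapped between the groups, from 71.4 to 266 in dark and from 161 to 498 in psilocybin-light mice. These shares were computed from genes already tested above and carry no test of their own.

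**Figure D3:**
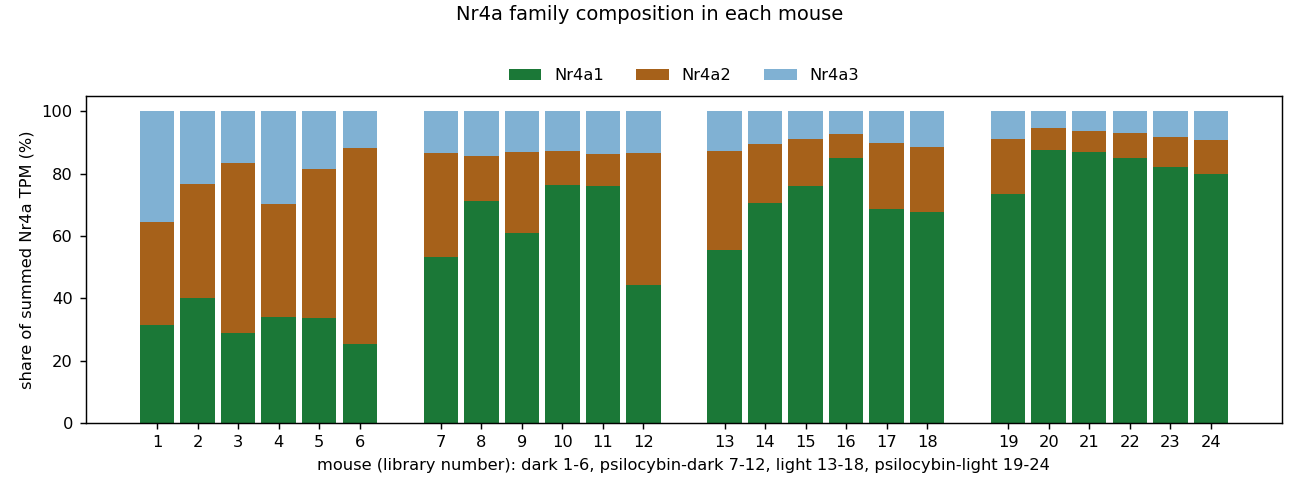
Share of the summed Nr4a TPM held by Nr4a1, Nr4a2 and Nr4a3 in each of 24 mice (percent, bars from 0 to 100, mice numbered by library and grouped by treatment). Nr4a1 stays at or below 40.2% in the dark mice and is at least 73.6% in every psilocybin-light mouse.

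Nr4a2 also marks layer 6b and claustrum neurons, so the other markers of these cells were read beside it. Among 4 tested layer 6b markers, Moxd1 was lower in light mice (−1.08, adjusted p = 0.00385), while Nxph4 (−1.05, adjusted p = 0.0947), Ccn2 (−0.42) and Cplx3 (0.74) did not pass. In psilocybin-dark mice Moxd1 was lower as well (−0.80, adjusted p = 0.0318), and in psilocybin-light mice Moxd1 was lower (−1.07) and Cplx3 higher (0.98, adjusted p = 0.018). Among the 6 claustrum markers Lxn was lower in light (−0.43, adjusted p = 0.0485) and psilocybin-dark mice (−0.50). In psilocybin-light mice Lxn (−0.54) and Ntng2 (−0.59, adjusted p = 0.0214) were lower. Of all genes, 16.5%, 12.8% and 21.0% were called lower in light, psilocybin-dark and psilocybin-light mice, and 17.4% higher in the last. The summed layer 6b markers had medians of 1213, 1261, 1070 and 1252 normalized counts in dark, psilocybin-dark, light and psilocybin-light mice, and the summed claustrum markers 6511, 5332, 5388 and 5322. Their ranges overlapped between all groups. The claustrum markers Gnb4, Gng2, Oprk1 and Synpr were not called in any comparison with dark mice. Without the 4 libraries with cerebellar markers, the set in which Nr4a2 gained its calls, 3 of 6 claustrum markers were lower in light mice. These were Lxn (−0.38), Ntng2 (−0.73) and Gng2 (−0.28), and the same 3 were lower in psilocybin-dark and psilocybin-light mice. Of all genes there, 22.0%, 20% and 24.2% were called lower in light, psilocybin-dark and psilocybin-light mice. In that set 2 of 4 layer 6b markers were lower in light mice (Moxd1 −1.54 and Ccn2 −0.71) and Moxd1 in both other groups (−1.13 and −1.44), and the part of these cells in the Nr4a2 calls was not tested. With the mean of both marker lists as a covariate, over all 24 libraries, Nr4a2 in psilocybin-light mice was still called (−1.07, adjusted p = 0.00836). That mean pools markers called in opposite directions there, such as Moxd1 and Cplx3. It ran from 4.28 to 4.78 in dark and from 4.08 to 4.60 in psilocybin-light mice, so this fit does not test the part of these cells.

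Npas4 has to pair with Arnt or Arnt2, so their balance was computed. The TPM of Arnt2 exceeded that of Npas4 by a median of 32.8 times in dark mice, 11.8 times in psilocybin-dark, 7.05 times in light and 7.44 times in psilocybin-light mice. Arnt2 exceeded Npas4 in every mouse. Arnt was scarcer than Arnt2, with a mean of 16.0 TPM in dark and 14.8 TPM in psilocybin-light mice. Arnt was not called in any comparison with dark mice (0.21, 0.13 and −0.04 for light, psilocybin-dark and psilocybin-light mice), but without the 4 libraries it was called higher in light (0.36, adjusted p = 0.000527) and psilocybin-dark mice (0.23, adjusted p = 0.0175).

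Of 16 genes listed for the bHLH-PAS family beside Npas4 and Arnt2, 14 were in the table and 11 were tested. In light mice 2 were higher, the clock factors Bmal1 (0.33, adjusted p = 0.000592) and Bmal2 (0.56, adjusted p = 0.0106), and 2 were lower, Npas3 (−0.77, adjusted p = 2.41e-05), a developmental factor, and Hif1a (−0.35, adjusted p = 0.00925), which responds to low oxygen. In psilocybin-dark mice Bmal1 (0.43) and Clock (0.19) were higher and Npas3 lower (−0.58). In psilocybin-light mice none was higher, and Npas3 (−0.90) and Hif1a (−0.37) were lower. These counts, 2 higher and 2 lower of 11 in light mice, lie near the background of 15.4% and 16.5% of all genes. With the 4 libraries left out there were 3 higher and 2 lower in light mice and 3 and 1 in psilocybin-dark mice. In psilocybin-light mice there were 0 and 3, and Npas2 was then lower (−0.34). Of all genes there, 21.1%, 18.3% and 24.0% were called higher and 22.0%, 20% and 24.2% lower in these groups. Bmal1, Clock and Npas3 kept the calls given above, as did Bmal2 in light mice and Hif1a. The median log2 fold change of the family lay between −0.03 and 0.13 over the 3 comparisons, beside −0.02 to −0.01 over all genes.

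The list of other rapidly induced genes moved with Npas4 and Nr4a1. All 10 (Arc, Dusp1, Egr1 to Egr4, Fos, Fosb, Ier2 and Junb) were higher in light and in psilocybin-light mice. In psilocybin-dark mice 9 of 10 were higher, and Junb did not pass (0.30, adjusted p = 0.414). Of all genes, 15.4%, 11.9% and 17.4% were called higher in light, psilocybin-dark and psilocybin-light mice. Arc, which controls the removal of AMPA receptors from synapses, had the largest change (2.83, 2.44 and 3.23 in light, psilocybin-dark and psilocybin-light mice). Egr1, a zinc finger factor, had 1.88, 1.64 and 2.05. The median over the list was 1.17 in light, 0.94 in psilocybin-dark and 1.60 in psilocybin-light mice. Without the 4 libraries with cerebellar markers the counts were 10, 8 and 10, beside 21.1%, 18.3% and 24.0% of all genes. Egr2 (0.93, adjusted p = 0.0544) was then not called in psilocybin-dark mice. Between psilocybin-light and psilocybin-dark mice, Dusp1 (0.61), Fos (0.94), Ier2 (0.83) and Junb (1.18) were called higher, as Npas4 was. Of all genes, 6.38% were called in that comparison, in either direction. In the smaller set there were 6 higher, with Egr2 (1.00) and Egr4 (0.44) added, and Fosb was lower (−0.35). There 8.41% of all genes were called higher and 8.81% lower. The interaction was called for Arc (−2.03), Egr1 (−1.48), Egr3 (−1.66) and Fosb (−1.25), beside 8.75% of all genes. Each of these had the sign of the Npas4 interaction.

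Genes that earlier work placed under Npas4 were mixed. Of 7 tested, 4 were higher in light mice, 3 in psilocybin-dark and 2 in psilocybin-light mice, beside 15.4%, 11.9% and 17.4% of all genes. In light mice these were Bdnf (0.53, adjusted p = 0.0133), a neurotrophin, Csrnp1 (0.59, adjusted p = 0.00549), Mdm2 (0.19, adjusted p = 0.00453), a ubiquitin ligase, and Nptx2 (1.32, adjusted p = 0.0133), which clusters AMPA receptors. Syt10, a synaptotagmin, was lower (−1.70, adjusted p = 3.13e-05), and Kcna1 and Plk2 did not pass. Dark mice 1 and 6 held 203 and 129 normalized counts of Nptx2, against 729 to 1554 in the other dark mice. Syt10 held 125 to 430 in dark mice and at most 136 in the others. The Syt10 values moved with the hippocampal values of the dark group, and the part of that tissue in them was not tested. In psilocybin-dark mice Bdnf (1.05), Csrnp1 (0.78) and Nptx2 (1.62) were higher and Syt10 lower (−1.14). In psilocybin-light mice Csrnp1 (0.86) and Nptx2 (1.37) were higher and Syt10 lower (−1.52), while Bdnf had 0.38 (adjusted p = 0.0592). With the 4 libraries with cerebellar markers left out, 4, 5 and 3 of the 7 genes were higher in light, psilocybin-dark and psilocybin-light mice and 1 was lower in each, beside 21.1%, 18.3% and 24.0% of all genes called higher in that set, and Kcna1 was then called higher in psilocybin-dark (0.57) and psilocybin-light mice (0.39). Bdnf and Npas4 did not share an order over the groups. Bdnf was highest in psilocybin-dark mice, with a median of 1284 normalized counts, against 863 in light and 718 in psilocybin-light mice, and it was lower in psilocybin-light than in psilocybin-dark mice (−0.67, adjusted p = 0.0123) where Npas4 was higher.

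Genes reported as Nr4a targets were mixed too. Of 6 tested, Vip, the peptide of a class of interneurons, was higher in light (1.11), psilocybin-dark (1.12) and psilocybin-light mice (1.20). Th and Slc6a3, the dopamine enzyme and transporter genes that depend on Nr4a2 in the midbrain, were called lower in all 3 groups. Dark mouse 1 held 324 normalized counts of Th and 159 of Slc6a3. The other 23 mice held at most 30.8 of Th and 6.49 of Slc6a3, and without the 4 libraries with cerebellar markers neither gene passed the filter on low counts. Pomc, Ret and Slc18a2 were not called in light mice (adjusted p between 0.0653 and 0.447), and of these Ret was called lower in psilocybin-light mice (−1.35, adjusted p = 0.0227). Beside these calls, 15.4%, 11.9% and 17.4% of all genes were called higher in light, psilocybin-dark and psilocybin-light mice. The shares called lower were 16.5%, 12.8% and 21.0%. With 1 of 6 called higher in each group, the list lay near the shares called higher. In the set without the 4 libraries with cerebellar markers, 4 targets were tested and Vip alone was called. It had 0.76, 0.80 and 0.82 in light, psilocybin-dark and psilocybin-light mice. In these groups 21.1%, 18.3% and 24.0% of all genes in that set were called higher.

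Among the retinoid X receptors, the partners of Nr4a1 and Nr4a2, Rxrg was lower in light (−2.88, adjusted p = 4.48e-06), psilocybin-dark (−2.45) and psilocybin-light mice (−2.62). It held between 67.6 and 299 normalized counts in dark mice and at most 68.2 in the others. Rxrb was higher by a small amount in light (0.21) and psilocybin-light mice (0.21), and Rxra was lower in psilocybin-dark mice (−0.28, adjusted p = 0.0394). The background was 15.4%, 11.9% and 17.4% called higher and 16.5%, 12.8% and 21.0% called lower in light, psilocybin-dark and psilocybin-light mice. With the 4 libraries left out, Rxra was lower in all 3 groups (−0.31, −0.33 and −0.25) and Rxrg was still called in each. Called lower in that set were 22.0%, 20% and 24.2% of all genes. The Rxrg values moved with the hippocampal values of the dark group, and their part in it was not tested.

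Of 10 regulators of transcription upstream of these genes, Mef2c, a calcium-responsive factor, was higher in light (0.97), psilocybin-dark (1.09) and psilocybin-light mice (0.94), and Crtc3, a CREB coactivator, was lower in all 3 (−0.29, −0.35 and −0.49). Leaving out the 4 libraries with cerebellar markers, Mef2c was still higher in all 3, but Crtc3 was not called in light mice (−0.15, adjusted p = 0.0691), Crtc2 was called higher there (0.33), and Elk1 was lower in psilocybin-dark (−0.19) and psilocybin-light mice (−0.21). Mef2d was higher in psilocybin-dark (0.24) and psilocybin-light mice (0.24). Creb1 itself was not called in light (−0.14, adjusted p = 0.368) or psilocybin-dark mice (0.08, adjusted p = 0.620), and was lower in psilocybin-light mice (−0.30, adjusted p = 0.0377), a call lost without the 4 libraries (−0.25, adjusted p = 0.0997). Srf, which drives many early genes through serum response elements, was not called in any of the 3 (0.30, 0.24 and 0.28). Among the 10 regulators 1, 2 and 2 were called higher in light, psilocybin-dark and psilocybin-light mice, beside 15.4%, 11.9% and 17.4% of all genes. Lower were 1, 1 and 3, beside 16.5%, 12.8% and 21.0%. Without the 4 libraries 2 were higher in each group, beside 21.1%, 18.3% and 24.0%. Lower in that set were 0, 2 and 3, beside 22.0%, 20% and 24.2%. Hdac5, a class II deacetylase, was lower in psilocybin-light mice against each of the other groups, at −0.18 against dark, −0.27 against light and −0.21 against psilocybin-dark mice. In the comparisons with light and psilocybin-dark mice, 0.608% and 6.38% of all genes were called, in either direction.

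**Figure D4:**
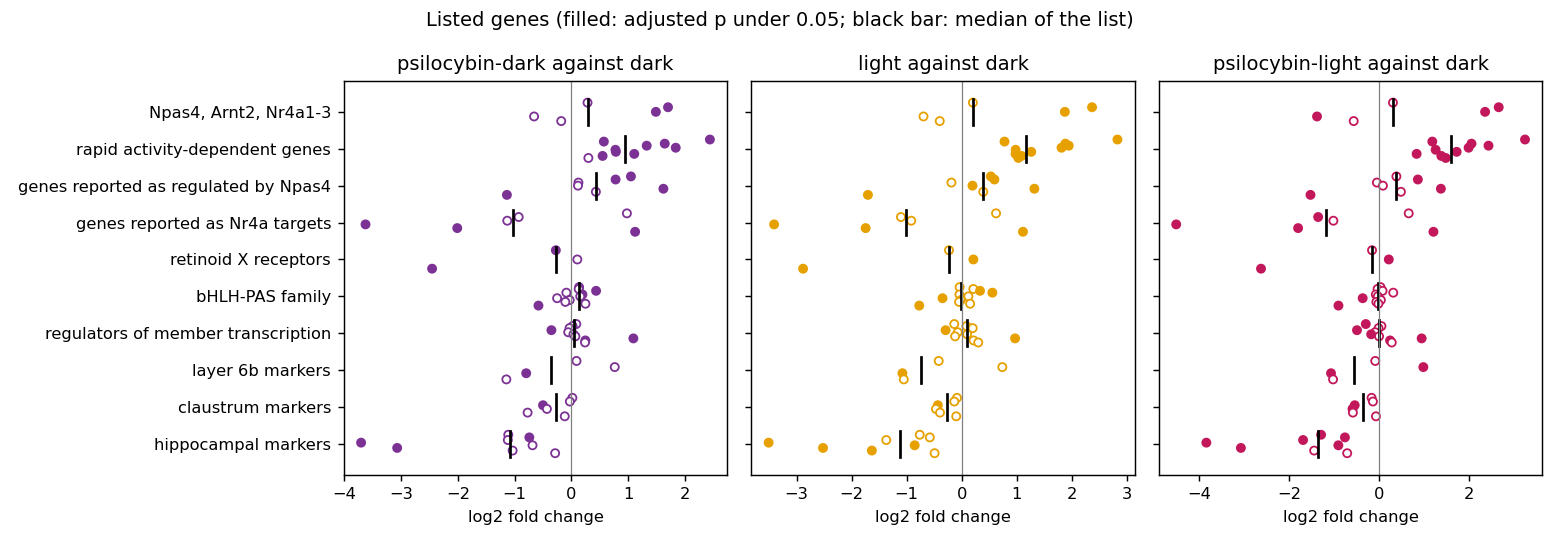
Log2 fold change against dark mice of every tested gene in the lists of early genes, reported targets, partners, regulators and layer 6b, claustrum and hippocampal markers (rows), in psilocybin-dark, light and psilocybin-light mice (panels). Filled points have an adjusted p under 0.05 and black bars give the median of a list. The early genes lie to the right of 0 in all 3 panels and the hippocampal markers to the left.

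The genes whose pattern was most like each of the 5 were found over the 24 libraries, among the 14342 genes whose mean count reached 10, by Pearson's r of log2 CPM. These values are descriptions and carry no p, since the libraries share the groups and the differences in tissue content. Nr4a1 was most like Dusp6 (r = 0.97), a phosphatase that switches off ERK, Arc (0.95) and Egr1 (0.95). Npas4 was most like Impdh1 (0.94), an enzyme of guanine nucleotide synthesis, Zdhhc8 (0.93), a palmitoyl transferase, and Igfbp6 (0.92), a binding protein of insulin-like growth factors, and none of these is on the list of early genes. Nr4a3 was most like Fosl2 (0.93), a Fos family member, Ccnd2 (0.82) and Hsp90ab1 (0.80). Nr4a2 was most like Ptger3 (0.89), a prostaglandin receptor, Cldn1 (0.87) and Man1a (0.85).

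Arnt2 was most like Tmem132b (r = 0.97), a gene without a name in the annotation (ENSMUSG00000055958, 0.96) and Add2 (0.96), and least like Dgcr2 (−0.95), Ppfia4 (−0.93) and Timp4 (−0.93). Dark mouse 6 held the lowest value of Tmem132b and Add2 and the highest of Dgcr2, Ppfia4 and Timp4, so this pattern was led by a library with cerebellar markers. Between the 5 genes, r was 0.86 for Npas4 with Nr4a1, 0.67 for Npas4 with Arnt2, −0.43 for Nr4a1 with Nr4a2 and 0.00 for Nr4a1 with Nr4a3.

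**Figure D5:**
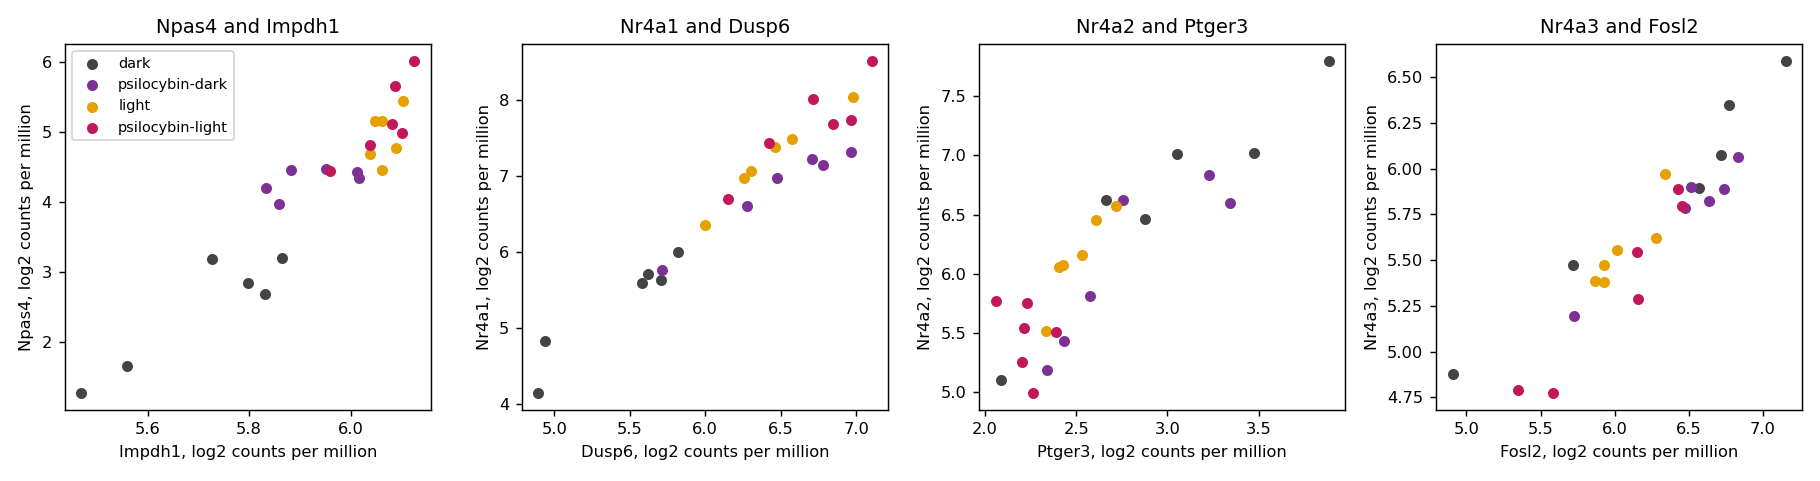
Log2 CPM (counts scaled by library size) of Npas4, Nr4a1, Nr4a2 and Nr4a3 (vertical axes) against the gene most like each of them (horizontal axes) in 24 libraries, coloured by group. Nr4a1 and Dusp6 form a line through all groups (r = 0.97), while Nr4a2 and Ptger3 (r = 0.89) reach their highest values in a dark mouse.

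Within a group of 6 mice, Npas4 and the Nr4a genes were correlated in pairs, 24 relations in all. None passed the adjustment, and the lowest adjusted p was 0.314 for Pearson's r and 0.467 for Spearman's rho (exact permutation of the pairings). The largest values were those of Nr4a1 with Nr4a3 in psilocybin-dark mice (r = 0.93, exact p = 0.0236, rho = 0.71, exact p = 0.136), which was 0.19 without the 2 mice farthest from the median, and of Npas4 with Nr4a1 in dark mice (r = 0.91, exact p = 0.0264, rho = 0.66, exact p = 0.175), which turned to −0.62 without 2 mice. Both rest on those mice.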

How the data were processed

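The authors sequenced poly-A RNA of the visual cortex, with 1 library per mouse. Per the labels, reads were trimmed with cutadapt, aligned with STAR and counted per gene with HTSeq. The labels name mm10 and the study's methods GRCm39. The deposited values are raw counts, without normalization, for 55414 genes in 24 libraries, and the counts of 1457 of 1457 genes in the study's supplementary count table, whose headings gave the groups, equalled them.

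The comparisons used edgeR 4.0.16 in R 4.3.3, with TMM scaling, 1 term per group, all 24 libraries together and the quasi-likelihood test. A gene entered if any library held 30 counts or more, which left 14464 genes, and Benjamini-Hochberg adjustment over these had a threshold of 0.05. The common biological coefficient of variation was 0.182. Single genes were also compared by two-sided exact permutation of log2 CPM (prior count 2) over 924 splits, adjusted over 30 tests. Names, positions and lengths came from GENCODE vM39, which named 14427 of the genes tested, and promoters from RefSeq. Alternatives were DESeq2 1.42.0, its size factors, other filters, fewer groups, the labels' light exposure, marker or surrogate covariates (sva 3.50.0) and fewer libraries. Scripts were tested on simulated data. Figures used matplotlib 3.10.9 in Python 3.11.15.

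The 5 genes, the gene lists and the tests were chosen with earlier results of these data known. Named list genes are up to 4 per list with the smallest p in light against dark mice among those past the threshold, members of lists of 7 or fewer where a value was needed, and the 3 genes most like each of the 5 (for Arnt2 also the 3 least like); other genes named from longer lists were chosen after their values were seen. A marker gene is not reported here.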

Additional observations from a re-analysis of the deposited data

Results flagged for a closer look

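Nr4a3 in light mouse 18 held 1006 normalized counts, and the gap to the next light mouse took 0.644 of the range of its group, above Dixon's 95% critical value for 6 mice. This library is also the light mouse with the most cerebellar marker counts, and the part of that in the value was not tested. It was the only flag of this kind among 20 groups of 6 mice (5 genes in 4 groups), and chance flags about 1 in 20 groups.

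The change of Npas4 with light differed between mice with and without psilocybin, with an interaction of −1.42 on the log2 scale (edgeR, adjusted p = 0.0282). Light against dark was 2.37 without the drug and 0.95 under it. Every one of the 12 light-exposed mice lay above all dark mice, and 5 of the 6 psilocybin-light mice lay above all psilocybin-dark mice. Against dark mice, 10.0% of all genes had no overlap in light and 15.8% in psilocybin-light mice, and 8.75% had a called interaction. The Npas4 interaction kept its call in 22 of 24 fits that left out 1 mouse. It lost the call with the hippocampal covariate.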

How the results depend on the processing

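All values are log2 fold changes. With the light exposure of the sample labels, light against dark was −0.20, −2.37, −1.87, 0.70 and 0.40 for Arnt2, Npas4, Nr4a1, Nr4a2 and Nr4a3, and the interaction 0.18, 1.42, 1.01, 0.024 and −0.016. Psilocybin-light against psilocybin-dark was −0.023, −0.95, −0.86, 0.72 and 0.38. For Npas4, Nr4a1, Nr4a2 and Nr4a3, psilocybin-dark against light was 2.65, 2.35, −1.38 and −0.56 and psilocybin-light against dark −0.67, −0.39, 0.037 and 0.22. Npas4 and Nr4a1 lost their calls in psilocybin-dark against dark (0.29, 0.48) and gained them in psilocybin-light against light (1.70, 1.49).

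With the hippocampal covariate, calls were lost for the Npas4 interaction (−1.33), Npas4 in psilocybin-dark mice (1.60), Nr4a1 in light, psilocybin-dark and psilocybin-light mice (1.42, 1.01, 1.86) and Nr4a2 in psilocybin-light mice (−1.08), and Nr4a3 changed sign in its interaction (−0.36) and in psilocybin-dark mice (0.25). With the layer 6b and claustrum covariate the Nr4a3 interaction was −0.17, Nr4a2 in psilocybin-dark against light −0.059, and Arnt2 in psilocybin-light mice was called (0.36). With 1 surrogate variable, Arnt2 was called in light, psilocybin-dark and psilocybin-light mice (0.18, 0.22, 0.20), as were Nr4a3 in psilocybin-light mice (−0.62) and Nr4a1 in psilocybin-light against psilocybin-dark (0.85), while the Nr4a3 interaction (−0.027) and Arnt2 in psilocybin-light against psilocybin-dark (−0.012) changed sign.

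Without dark mice 1 and 6, calls were gained for Nr4a2 in light (−0.89) and psilocybin-dark mice (−0.85), Nr4a3 in light (−0.67) and psilocybin-light mice (−0.83) and Nr4a1 in psilocybin-light against psilocybin-dark (0.87), and the interactions of Arnt2 (0.015) and Nr4a2 (0.17) changed sign. Without the 4 libraries with cerebellar markers, chosen after seeing the data, calls were gained for Nr4a2 (−0.99, −0.95) in light and psilocybin-dark mice, Nr4a3 (−0.77, −0.83) in light and psilocybin-light mice and Arnt2 in psilocybin-dark mice (0.14), and the Nr4a2 interaction (0.37) and Arnt2 in psilocybin-light against psilocybin-dark (−0.026) changed sign. In psilocybin-light against dark mice, Arnt2 was called by DESeq2, with its size factors and with filterByExpr (0.31 in each), and Nr4a3 by DESeq2 (−0.56). Without a filter Npas4 lost its call in psilocybin-light against psilocybin-dark (0.95, adjusted p = 0.0639), and with the compared groups alone it gained one in psilocybin-dark against light (−0.67, adjusted p = 0.0459). The cause of these changes was not tested.

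Leaving out 1 mouse at a time, Npas4 and Nr4a1 kept their calls against dark mice in all 24 fits, as did Nr4a2 in psilocybin-light mice. Values ran from −0.89 to −0.41 (light) and −0.85 to −0.37 (psilocybin-dark) for Nr4a2, called without dark mouse 1. For Nr4a3 they ran from −0.54 to −0.24 (light), called without dark mouse 6, and from −0.70 to −0.40 (psilocybin-light), called without dark mouse 1 or 6 or psilocybin-light mouse 21 or 24. For Arnt2 they ran from 0.18 to 0.35 (psilocybin-dark), called without psilocybin-dark mouse 12, and from 0.21 to 0.36 (psilocybin-light), called in 8 fits. Npas4 in psilocybin-light against psilocybin-dark ran from 0.75 to 1.07 and its interaction from −1.62 to −1.24. Signs changed for the interactions of Nr4a2 (−0.31 to 0.17) and Nr4a3 (−0.15 to 0.16), Nr4a2 in psilocybin-dark against light (−0.13 to 0.18) and Arnt2 in psilocybin-light against psilocybin-dark (−0.033 to 0.0599). No paired analysis was possible because the groups share no replicate numbers.

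Over all genes, the interaction had 1266 calls, but 0 with the hippocampal covariate, 759 without a filter, 2633 with the surrogate variable, 3078 without dark mice 1 and 6, 3810 without the 4 libraries and 834 to 2092 without 1 mouse. Light against dark had 4611 calls and 3073 with the compared groups alone. Psilocybin-light against light had 88 calls, but 22 without a filter, 191 by DESeq2, 331 without the 4 libraries and 9 (without psilocybin-light mouse 19) to 155 (without light mouse 17) without 1 mouse. Psilocybin-dark against light had 66 calls, but 0 without a filter, 405 by DESeq2 and 852 without the 4 libraries. Psilocybin-light against psilocybin-dark had 923 calls, but 463 without a filter and 2434 without the 4 libraries.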
